A study of Mus musculus with 29 samples.

Results

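The subject is the endothelium of the mouse brain 14 days after stroke, set against the same cells 2 days after stroke. Endothelial cells were taken as all cells that the authors' deposited annotation codes as EC, in the brain libraries of 8 to 10 week old mice. The 4 stroke libraries of day 14 held 1610 such cells and the 4 of day 2 held 2491, together 4101 of the 28240 cells in these 8 libraries and of the 55268 brain cells in the series. Stroke had been induced by blocking the middle cerebral artery for a limited time, and 4 libraries of sham surgery at day 2, with 1779 endothelial cells, were the reference. No sham group of day 14 was used here, so a difference of day 14 from sham combines stroke with time since surgery.

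All 12 libraries came from male C57BL/6J mice and were made by Drop-seq, in which single cells are caught in droplets with barcoded beads. Each library pooled 4 to 5 hemispheres, digested with papain in the presence of the transcription inhibitor actinomycin D, Brilliant Blue G and AP-5. Endothelial cells had been sorted as CD45-negative cells with high Ly6c, together with microglia and CD45-high leukocytes. The labels number the libraries as replicates and do not say whether the pools came from separate surgery days, so p-values measure the spread between these libraries. Aged mice of 17 to 20 months gave 6 further brain libraries, which are used below for values only.

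Brain endothelial cells form the blood-brain barrier: they are sealed by tight junctions, carry nutrients inward and drugs outward through dedicated transporters, and are kept in this state by Wnt and β-catenin signalling. After ischaemia they can lose barrier features, display adhesion molecules for leukocytes, remodel their basement membrane and take part in the growth of vessels. Capillary, arterial and venous segments differ in the genes they use, and endothelium also answers interferons with antiviral genes and antigen presentation by MHC class I.

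The 14 endothelial markers (among them Cldn5, Pecam1 and Cdh5) were all measured in the fit and summed to 35910 to 50515 CPM (each library's counts put on one scale by its TMM-adjusted size) at day 2 and 48462 to 62542 CPM at day 14, ranges that overlap. Of the 14, 5 were called higher and 1 lower at day 14 than at day 2, beside 5.07% and 6.14% of all genes. The sums of other cells' markers in this paragraph are CPM of plain library size, without TMM. The 12 microglial markers summed to at most 43.6 CPM at day 2 and 204 CPM at day 14, against 44251 CPM in the cells coded as microglia. The 10 neutrophil markers summed to at most 19.4 and 83.8 CPM, and the mural markers to 76.4 to 257 CPM at day 2 and 98.9 to 856 CPM at day 14, with Pdgfrb, Abcc9 and Notch3 at 0 in all 8 stroke libraries. Rgs5 was the only mural marker that could be tested. With TMM it was at 85.6, 55.7, 222 and 83.5 CPM at day 2 and at 231, 85.2, 263 and 866 CPM at day 14. Its difference was 1.61, with an unadjusted p under 0.05 by edgeR but no call. Red cell markers summed to at most 6069 CPM at day 2 and 9732 CPM at day 14. The 12 monocyte-derived cell markers summed to 375 to 1364 CPM at day 2, 338 to 1282 CPM at day 14 and 521 to 908 CPM in sham, against 48212 CPM in the cells coded MdC, and 0 of the 2 that could be tested were called. Choroid and ependymal markers summed to 27.2 to 52.3 CPM at day 2 and 21.8 to 348 CPM at day 14, and Enpp2, the only 1 that could be tested, was called higher at day 14 (1.10 ± 0.34, adjusted p 0.0462) but not without any 1 of 11 libraries (adjusted p 0.0526 to 0.171). The part of these other cells' RNA in the results was not tested. Endothelial counts per library were 343753 to 730352 at day 2, 115733 to 562110 at day 14 and 100317 to 377240 in sham. The 12 libraries fell into 2 sets by the mitochondrial share of endothelial counts, with medians of 0.496% to 1.12% in replicates 1 and 2 of both stroke times and sham replicate 1, and of 5.47% to 8.62% in the other 7. Each stroke time had 2 libraries in each set. Values within the sets are given where they bear on a difference between the stroke times. Sham had 1 library in the set of low and 3 in the set of high share. Comparisons with sham are therefore not balanced over the sets, and no values within the sets were made for them.

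Between day 14 and day 2, edgeR's quasi-likelihood test called 654 of 5833 genes at a Benjamini-Hochberg adjusted p under 0.05, or 11.2%. At day 14, 296 genes were higher (5.07%) and 358 lower (6.14%) than at day 2. For 1108 genes (19.0%) the 4 libraries of one time lay wholly above or below those of the other. The genes called higher at day 14 included 12 of 20 barrier transporters, 10 of 19 Wnt signalling genes, 8 of 9 capillary genes and 9 of 13 early response genes. Those called lower included 9 of 19 genes of motility and cytoskeleton, 30 of 87 ribosomal protein genes and 27 of 78 nuclear genes of oxidative phosphorylation. The lists were written with earlier results of these data known, so their counts here and below are descriptions. The median log2 difference over all genes was 0.02. Library size without TMM, the scaling used throughout, moved that median to 0.12 and the split to 405 genes higher and 244 lower, so the balance of directions is relative to TMM. The call count was 348, 366 and 324 without day 14 replicate 1, 2 and 4. With 2 libraries a time it was 13 within the set of low and 133 within the set of high mitochondrial share. With the set as a term in the fit of all 12 libraries it was 823.

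**Figure D1:**
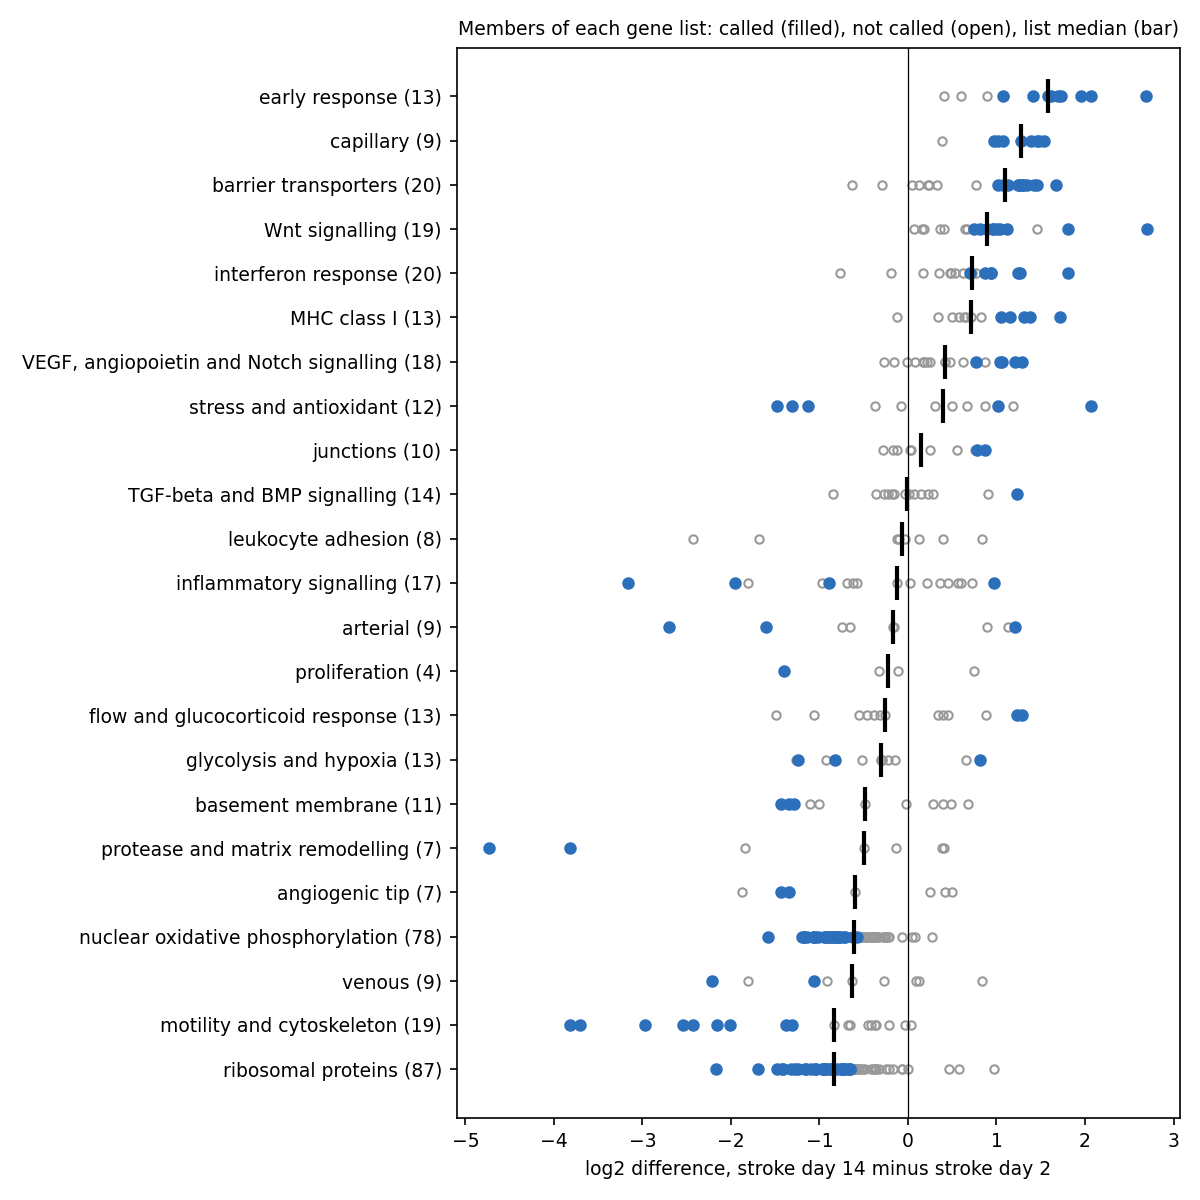
Each row is a gene list with its number of tested genes, and each point is 1 gene's log2 difference of stroke day 14 minus stroke day 2; filled points were called by edgeR at an adjusted p under 0.05, open points were not, and the black bar is the list's median. The medians of the lists shown run from -0.84 for ribosomal proteins to 1.58 for early response genes.

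The comparison of day 2 with sham gave the changes that could return or persist. At day 2, 778 of 5833 genes were called (13.3%), 402 higher (6.89%) and 376 lower (6.45%) than in sham. Of these 778, 432 (55.5%) were also called between day 14 and day 2 in the opposite direction and are termed returned. They comprised 255 of the genes that were higher at day 2 and 177 of those that were lower. The term requires no return to the level of sham. Returned genes that were higher at day 2 had a median log2 difference from sham of 1.11 at day 2 and 0.04 at day 14. For the returned genes that were lower at day 2 these medians were -1.19 and -0.03. The count and these medians are descriptions, since the day 2 libraries enter both comparisons that define the class. The count was 481 without sham replicate 1 and 230 to 257 without sham replicate 2, 3 or 4. With the set of mitochondrial share as a term it was 523. Without day 2 replicate 4 it was 286, and without day 14 replicate 1, 2 and 4 it was 258, 277 and 234.

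No gene met the rule for persistence, a call between day 14 and sham in the direction of day 2: edgeR called 0 genes between day 14 and sham, while the unadjusted p was under 0.05 for 356 genes (6.10%). DESeq2 called 10. Without sham replicate 1 edgeR called 1. A weaker rule found 78 of the 778 day 2 genes (10%), termed possibly kept, with no call between day 14 and day 2 and an unadjusted p under 0.05 for day 14 against sham in the direction of day 2. Both comparisons use the same 4 sham libraries, so the count is a description. Of these, 25 were higher than sham, with medians of 1.5 at day 2 and 1.01 at day 14, and 53 were lower, with medians of -1.27 and -0.84. The remaining 268 genes (34.4%) met neither rule. Over all day 2 genes, the median difference from sham went from 1.09 to 0.14 for the 402 higher genes and from -1.14 to -0.30 for the 376 lower genes.

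Genes of transport across the barrier were among those higher at day 14 than at day 2. Of 20 transporter genes tested, 12 were called higher and 0 lower, and the list median was 1.10. Abcb1a, the drug efflux pump P-glycoprotein, stood at 795, 787, 1014 and 972 CPM in the day 2 libraries and at 2435, 2420, 1648 and 2542 CPM in those of day 14. In sham it was at 1791, 3057, 3427 and 3077 CPM, so every day 2 library lay below all others. Its log2 difference of day 14 minus day 2 was 1.34 ± 0.24 (SE, adjusted p 0.00303 by edgeR). Slco1c1, a carrier of thyroid hormone, was at 723, 571, 795 and 771 CPM at day 2 and at 2085, 1533, 1607 and 1620 CPM at day 14 (1.26 ± 0.21, adjusted p 0.00219). Its day 14 libraries covered the same range as sham, at 1452 to 1892 CPM but for day 14 replicate 1.

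Slc7a1, which carries cationic amino acids, rose from 74.2, 76.6, 112 and 132 CPM to 274, 250, 267 and 282 CPM (1.43 ± 0.23, adjusted p 0.00207 by edgeR). Slc38a3, a glutamine transporter, rose from 111 to 249 CPM at day 2 to 366 to 521 CPM at day 14 (1.30 ± 0.24, adjusted p 0.00315). Neither pair of groups overlapped, as was so for 19.0% of all genes. Tfrc, the transferrin receptor that takes up iron, and Mfsd2a, a lipid carrier of the barrier, were also called (1.46 ± 0.32 and 1.07 ± 0.28), the latter not with any 1 of 5 libraries removed (adjusted p 0.0542 to 0.0882). A call is termed dependent on a library when the adjusted p reached 0.05 without it. Slc2a1, the glucose transporter of the barrier, did not pass the test (-0.29 ± 0.24, adjusted p 0.472), nor did Abcg2, another efflux pump (0.33 ± 0.24, adjusted p 0.395). All 8 transporters that were called lower at day 2 than in sham were in the returned class. Between 8 and 12 transporters were called when 1 library was left out, and within the sets of low and high mitochondrial share the list medians were 1.36 and 0.97. When only cells with the deposited code EC1 were summed, the list median was 0.58.

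Wnt signalling genes, which respond to or carry the signal that maintains the barrier, had a list median of 0.89, with 10 of 19 tested genes called higher and 0 lower. Axin2, a direct target and feedback inhibitor of the pathway, was at 11.4, 0, 16.1 and 24.1 CPM at day 2 and at 84.3, 120, 104 and 65.9 CPM at day 14. In sham it was at 73.1 to 88.7 CPM, a range that lies inside that of day 14. Its log2 difference of day 14 minus day 2 was 2.70 ± 0.42 (adjusted p 0.00189 by edgeR). Notum, a secreted Wnt inhibitor that is also a target, went from 36.1, 45.3, 34.8 and 83.5 CPM to 197, 190, 113 and 226 CPM (1.80 ± 0.32, adjusted p 0.00295). Lef1, a transcription factor that reads β-catenin, went from 202 to 307 CPM up to 453 to 640 CPM (1.04 ± 0.21, adjusted p 0.00656). The libraries of both times were apart for these 3 genes, as for 19.0% of all genes. For Axin2 and Notum this was a condition of their being named among the largest changes. The receptor Fzd6 rose (0.97 ± 0.22, adjusted p 0.0105), and Fzd4, the receptor that binds norrin, did not pass the test (0.16 ± 0.22, adjusted p 0.675). Ctnnb1, which encodes β-catenin, and Reck, a membrane cofactor of Wnt7, were called as well (0.96 ± 0.26 and 0.81 ± 0.24), calls that were dependent on each of 4 and each of 11 libraries (adjusted p 0.0552 to 0.0934 and 0.0504 to 0.114). All 19 differences were above 0. Counts called ranged from 4 to 10 when 1 library was left out.

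Among genes of VEGF, angiopoietin and Notch signalling, 5 of 18 were called higher and 0 lower, with a list median of 0.42, and 2 to 5 were called without 1 library. Flt1, a VEGF receptor, fell at day 2 to 1959, 2452, 2162 and 2099 CPM from 4910 to 5776 CPM in sham, and stood at 3769, 4850, 3662 and 5518 CPM at day 14. The day 14 minus day 2 difference was 1.04 ± 0.21 (adjusted p 0.00579 by edgeR). Hes1, a target of Notch, went from 114 to 209 CPM to 285 to 521 CPM (1.29 ± 0.24, adjusted p 0.00348). Nrp1, a co-receptor of VEGF, was called too (1.07), but not with any 1 of 5 libraries removed (adjusted p 0.053 to 0.0707), while Kdr, the main VEGF receptor, was not (0.42). Tek, the angiopoietin receptor, and the arterial ligand Efnb2 were called higher (0.77 ± 0.19 and 1.21 ± 0.30), but these calls were dependent on each of 5 and each of 4 libraries (adjusted p 0.0549 to 0.0766 and 0.0528 to 0.0657).

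**Figure D2:**
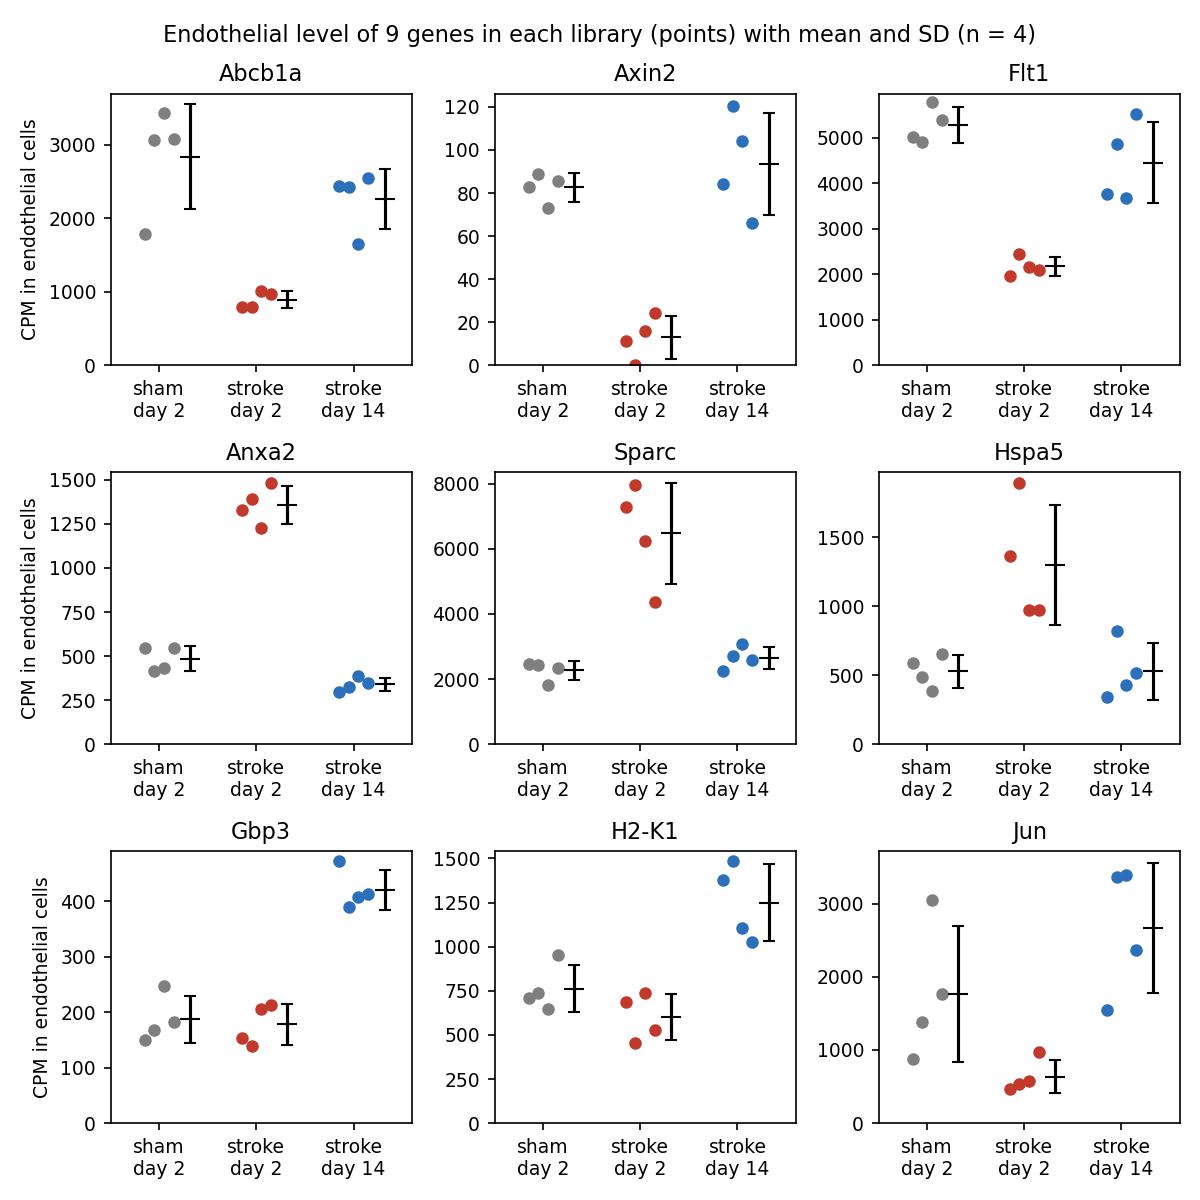
CPM of 9 genes in endothelial cells, with 1 point per library in the order of the replicate numbers, grey for sham day 2, red for stroke day 2 and blue for stroke day 14; the black mark and bar are the mean and SD of 4 libraries. Abcb1a, Axin2 and Flt1 are low at day 2, Anxa2, Sparc and Hspa5 are high at day 2, and Gbp3 and H2-K1 are highest at day 14.

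Of 10 junction genes tested, Ocln and Tjp1 were called higher at day 14 and 0 were called lower, with a list median of 0.14, beside 5.07% of all genes called higher. Ocln, which encodes occludin of the tight junction, was at 83.6 to 137 CPM at day 2 and 155 to 240 CPM at day 14 (0.87 ± 0.23, adjusted p 0.0234 by edgeR). Tjp1, the scaffold protein ZO-1, was at 202 to 286 CPM at day 2 and 285 to 511 CPM at day 14 (0.78 ± 0.21, adjusted p 0.0258), and the groups overlapped between day 2 replicate 3 and day 14 replicate 3. Cldn5, the main claudin of the barrier, did not pass the test (0.55), and Cdh5, the adhesion molecule VE-cadherin, differed by 0.02. The calls of Ocln and Tjp1 were dependent on each of 5 and each of 6 libraries (adjusted p 0.0507 to 0.0986 and 0.0573 to 0.1).

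Capillary genes were called higher in 8 of 9 cases, with a list median of 1.28, and 4 to 8 were called when 1 library was left out. The list shares Mfsd2a, Tfrc, Slc16a1 and Slc7a5 with the transporters. Spock2, an extracellular proteoglycan, went from 991, 582, 1688 and 1189 CPM at day 2 to 3004, 2470, 3589 and 3870 CPM at day 14 (1.54 ± 0.29, adjusted p 0.00373 by edgeR). Car4, a carbonic anhydrase on the vessel surface, went from 354 to 837 CPM up to 1227 to 1761 CPM (1.40 ± 0.27, adjusted p 0.00443). Ivns1abp, which encodes a kelch-repeat protein, was at 79.9 to 141 CPM and 200 to 461 CPM (1.48 ± 0.27, adjusted p 0.00303). For these 3 genes the libraries of both times did not overlap, as for 19.0% of all genes. Venous genes were called lower in 2 of 9 cases, with a median of -0.63. Of all genes, 6.14% were called lower and 5.07% higher. Tmem252 fell from 1795, 2108, 2012 and 2123 CPM to 325, 666, 439 and 301 CPM (-2.21 ± 0.39, adjusted p 0.00276). Vwf, the von Willebrand factor stored by endothelium, had a difference of -1.07 ± 0.31 (adjusted p 0.0353), a call that was dependent on each of 7 libraries (adjusted p 0.0521 to 0.0947 without them). Of 9 arterial genes, Efnb2 was called higher, and Gja4, the gap junction protein connexin 37, fell from 124 to 164 CPM to 0 to 30.1 CPM (-2.70 ± 0.49, adjusted p 0.00303). Mgp, an inhibitor of calcification, was the other arterial gene called lower (-1.60 ± 0.46, adjusted p 0.0357), a call dependent on each of 8 libraries (adjusted p 0.0531 to 0.0946).

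Of the 19 genes of motility and cytoskeleton, 9 were called lower at day 14 and 0 higher, with a list median of -0.83. Anxa2, a membrane-binding annexin, was at 1331, 1390, 1228 and 1482 CPM at day 2 and at 296, 326, 385 and 348 CPM at day 14, below the 418 to 547 CPM of sham. Its log2 difference of day 14 minus day 2 was -2.01 ± 0.20 (adjusted p 7.14e-05 by edgeR). S100a6, a calcium-binding protein, fell from 378, 401, 302 and 485 CPM to 48.4, 25.1, 9.05 and 0 CPM (-3.81 ± 0.54, adjusted p 0.00107). Granulocytes held S100a6 at 23 times the endothelial level, and the part of RNA from other cells in its values was not tested. Emp1, a membrane protein, fell from 64.2 to 254 CPM to 9.42 to 18.1 CPM (-3.70 ± 0.59, adjusted p 0.00197), and Pdlim1, which binds actin fibres, from 51.4 to 132 CPM to 5.01 to 18.8 CPM (-2.97 ± 0.45, adjusted p 0.00179). Vim, the filament protein vimentin, was called lower too (-1.31 ± 0.26). Between 8 and 9 genes of the list were called when 1 library was left out, and 4 and 7 within the sets of low and high mitochondrial share. Of the 9 called genes, 8 were in the returned class, which requires no return to the level of sham. With 1 library left out, the day 2 difference of Pdlim1 from sham was 4.36 to 5.12. Its difference of day 14 minus day 2 was smaller in size, at -3.23 to -2.74. Anxa2, by contrast, lay below sham at day 14.

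The tubulin gene Tubb6 was at 112 to 157 CPM at day 2 and at 0 to 45.3 CPM at day 14 (-2.42 ± 0.41, adjusted p 0.00231 by edgeR), and Tuba1c at 61.5 to 119 and 0 to 36.2 CPM (-2.76 ± 0.56, adjusted p 0.00617). With 1 library left out, the day 2 difference of Tubb6 from sham was 3.92 to 5.20. Tuba1a had a difference of -0.38 ± 0.24 (adjusted p 0.344), without a call. All 3 are members of families with similar sequences, so the assignment of their reads is uncertain. Ccnd1, which drives entry into the cell cycle, was called lower (-1.39 ± 0.32, adjusted p 0.0121) but not without day 14 replicate 1 (adjusted p 0.0547). It was 1 of only 4 proliferation genes high enough to be tested.

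Among 11 basement membrane genes 3 were called lower at day 14 and 0 higher, with a median of -0.49, and 1 to 4 were called lower without 1 library. Of all genes, 6.14% were called lower. Sparc, which binds collagen, was at 7294, 7967, 6253 and 4380 CPM at day 2 and at 2259, 2695, 3092 and 2580 CPM at day 14 (-1.28 ± 0.23, adjusted p 0.00292 by edgeR), and sham was at 1828 to 2467 CPM. Col4a1 and Col4a2, the chains of type IV collagen, fell from 249 to 947 CPM to 167 to 346 CPM and from 218 to 1050 CPM to 140 to 290 CPM, and both ranges overlapped. Their differences were -1.34 ± 0.35 (adjusted p 0.0235) and -1.44 ± 0.38 (adjusted p 0.0233), dependent on each of 5 and each of 3 libraries (adjusted p 0.0533 to 0.0732 and 0.0689 to 0.0792). The laminins Lama4, Lama5, Lamb2 and Lamc1 were not called, with differences of -0.02 to 0.68. Of 7 genes of proteases and matrix remodelling, Timp1 and Adamts9 were called lower. Timp1, an inhibitor of metalloproteinases, was at 68.5, 94.1, 91 and 72.3 CPM at day 2, at 0 in all 4 sham libraries, and at day 14 at 5.38 CPM in replicate 1 and 0 in the other 3 (adjusted p 0.000945). A count of 0 allows up to 3 counts, which is 5.38 to 28.2 CPM in the day 14 libraries and 7.77 to 32.2 CPM in sham, so low values there carry little precision. Adamts9, a metalloproteinase, was at 62.6 to 160 CPM at day 2 and at 16.1 CPM in day 14 replicate 1 and 0 in the other 3 (adjusted p 0.00262). Neither list had a gene called higher at day 14.

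In the inflammatory group, 3 of 17 genes were called lower and 1 higher, with a list median of -0.12, and without 1 library 1 to 4 were called lower. Of all genes, 6.14% were called lower and 5.07% higher. Lrg1, a secreted glycoprotein of inflamed vessels, fell from 848, 1132, 781 and 665 CPM to 104, 40.1, 204 and 0 CPM, around the 53.6 to 110 CPM of sham (-3.17 ± 0.49, adjusted p 0.00179 by edgeR). Cxcl12, the chemokine that retains leukocytes at the vessel wall, went from 1014 to 1585 CPM up to 2320 to 3456 CPM (0.97 ± 0.25, adjusted p 0.0231), a call that failed after removal of replicate 1 or 3 of day 2 or replicate 4 of day 14 (adjusted p 0.0508 to 0.088). Tnfrsf1a, the main receptor for tumour necrosis factor, and Cebpd, an inflammatory transcription factor, were called lower (-0.89 ± 0.26 and -1.95 ± 0.51), and these calls were dependent on each of 8 and each of 3 libraries (adjusted p 0.0504 to 0.0814 and 0.0608 to 0.0764). Among 8 leukocyte adhesion genes 0 were called by edgeR and 0 by DESeq2, while 3 had an unadjusted p under 0.05, beside 26.5% of all genes. With the replicate number as a block 1 was called, Ackr1. Ackr1, a chemokine receptor of venules, was at 342 to 470 CPM at day 2 and at 113, 45.1, 303 and 0 CPM at day 14, a difference of -1.68 ± 0.62 (adjusted p 0.091). Selp, the adhesion molecule P-selectin, was at 76.1, 62.7, 45.5 and 22.5 CPM at day 2, at 40.7 CPM in day 14 replicate 3 and at 0 in the other 3 libraries of day 14 and in all of sham (adjusted p 0.0993 between the 2 stroke times). Icam1 differed by 0.12 and Vcam1 by 0.84 without a call.

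Other genes with large changes stood outside the lists. Esyt2, a tether between the endoplasmic reticulum and the plasma membrane, went from 143, 132, 225 and 138 CPM at day 2 to 563, 501, 552 and 1130 CPM at day 14 (2.09 ± 0.36, adjusted p 0.00265 by edgeR). Igf1r, the receptor of insulin-like growth factor 1, was lower at day 2 than in sham (-2.05 ± 0.25, adjusted p 0.000387). It was at 262 to 403 CPM at day 2 and 611 to 1196 CPM at day 14 (1.45 ± 0.25, adjusted p 0.00255), with sham at 1021 to 1517 CPM. Igfbp4, which binds insulin-like growth factors, fell from 331, 118, 166 and 85.1 CPM to 21.5, 5.01, 0 and 0 CPM (-3.99 ± 0.62, adjusted p 0.00193). Upp1, a uridine phosphorylase, fell from 88.3 to 129 CPM to 0 to 36.2 CPM (-2.67 ± 0.45, adjusted p 0.00231). Ace, the angiotensin-converting enzyme, fell from 69.1 to 110 CPM to 9.42 to 18.1 CPM (-2.51 ± 0.45, adjusted p 0.00293). Ch25h, which makes 25-hydroxycholesterol, fell from 257 to 376 CPM to 9.42 to 76.9 CPM (-2.51 ± 0.49, adjusted p 0.00533). Against sham, day 14 differed by -0.59 ± 0.24 for Igf1r (unadjusted p 0.0272) and had an unadjusted p of 0.0424 for Upp1, neither of which passed adjustment. With 1 library left out, the day 2 difference of Upp1 from sham was 4.18 to 4.88.

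Some genes with large changes had calls that were dependent on single libraries. Tril, a partner of Toll-like receptors, was at 0, 0, 26.8 and 22.5 CPM at day 2 and at 71.7, 40.1, 72.4 and 56.5 CPM at day 14 (2.22 ± 0.62, adjusted p 0.0302 by edgeR), a call dependent on each of 7 libraries (adjusted p 0.0623 to 0.105). Ints6l, a relative of an Integrator subunit, was at 20.9 to 42.8 CPM and 67.9 to 160 CPM (1.83 ± 0.47, adjusted p 0.0207), dependent on each of 5 (adjusted p 0.0511 to 0.0694). Jade1, which belongs to a histone acetyltransferase complex, was at 13.9 to 24.1 CPM and 35.9 to 110 CPM (1.77 ± 0.44, adjusted p 0.0188), dependent on each of 3 (adjusted p 0.0588 to 0.082). Ints6l differed by 2.61 and 1.00 within the sets of low and high mitochondrial share, and Tril by 1.40 (adjusted p 0.154) within the set of high share. Uchl1, a ubiquitin hydrolase, was at 45.5 to 90.6 CPM at day 2 and at 17.9, 10.0, 0 and 0 CPM at day 14 (-2.52 ± 0.64, adjusted p 0.0203), dependent on each of 3 (adjusted p 0.0517 to 0.0577). The libraries of both times were apart for these 4 genes, a condition of their being named, and for 19.0% of all genes. Ltbp4, which binds latent TGF-beta, went from 110 to 148 CPM to 231 to 386 CPM (1.23 ± 0.25, adjusted p 0.00616), a call kept without any 1 library. It was the only called gene of the 14 tested in its TGF-beta and BMP list, beside 11.2% of all genes. Tmem173, the sensor adaptor STING, and Mfhas1 were among the largest changes at day 2 against sham (4.22 ± 0.72 and -1.97 ± 0.31), and between day 14 and day 2 they differed by -1.92 ± 0.49 and 1.49 ± 0.30 (adjusted p 0.0211 and 0.00643). The call of Tmem173 between the stroke times was dependent on each of 5 libraries (adjusted p 0.0557 to 0.082).

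Ribosomal protein genes and genes of respiration also differed between the times. Of 87 ribosomal protein genes tested, 30 were called lower at day 14 and 0 higher, with a list median of -0.84. Their summed level was 122733, 133113, 86302 and 142514 CPM at day 2, 72145, 75962, 47994 and 71192 CPM at day 14 and 44497 to 89723 CPM in sham, and sham replicate 2 overlapped the range of day 2. Of 78 nuclear genes of oxidative phosphorylation, 27 were called lower and 0 higher, with a median of -0.61. They summed to 25882, 33341, 35610 and 36761 CPM at day 2 and to 19691, 20115, 23922 and 19764 CPM at day 14. Of the 30 ribosomal genes 25 were in the returned class, and of the 27 others 24. With library size in place of TMM the counts of genes called lower were 21 and 13, and over the libraries left out in turn they were 15 to 34 and 9 to 30. Ribosomal protein genes have many pseudogenes, so the assignment of their reads is uncertain. Of 10 mitochondrially encoded genes 0 were called by edgeR and 0 had an unadjusted p under 0.05, and their summed level followed the 2 library sets named above (5937 to 11881 CPM and 64053 to 98404 CPM over the stroke libraries).

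Of 13 glycolysis and hypoxia genes 2 were called lower and 1 higher, beside 6.14% and 5.07% of all genes. Ldha, the lactate dehydrogenase subunit, fell from 744 to 1022 CPM to 301 to 453 CPM (-1.24 ± 0.22, adjusted p 0.00262 by edgeR). Pkm, which makes pyruvate, and the hypoxia gene Ndrg1 had differences of -0.82 ± 0.23 and 0.81 ± 0.25, and their calls were dependent on each of 6 and each of 10 libraries (adjusted p 0.0555 to 0.0973 and 0.076 to 0.14). Stress genes went both ways: Hspa5, a chaperone of the endoplasmic reticulum, fell from 1366, 1892, 971 and 973 CPM to 339, 822, 430 and 518 CPM (-1.31 ± 0.30, adjusted p 0.013). Gclm, which makes glutathione, fell as well (-1.13 ± 0.20, adjusted p 0.00295). Txnrd1, a thioredoxin reductase, fell from 81.9 to 282 CPM to 62.8 to 75.3 CPM (-1.47 ± 0.36, adjusted p 0.0176), a call lost without replicate 1 of either time (adjusted p 0.0559 and 0.0599), with differences of -2.01 and -0.69 within the sets of low and high mitochondrial share. Hspa1b, an inducible heat shock protein with a near-identical copy in Hspa1a, was at 55.7 to 179 CPM at day 2 and 181, 922, 181 and 405 CPM at day 14 (2.07 ± 0.49, adjusted p 0.0156), and its call was lost without day 14 replicate 2 (adjusted p 0.0693).

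A second group of genes differed between the stroke times without a call at day 2 against sham. Of the 654 called genes, 222 were not called at day 2 against sham, and for 86 of these the unadjusted p of that comparison was 0.05 or more. Of the 86, 48 were higher and 38 lower at day 14 than at day 2. The interferon response list held 7 of these 86 genes, with 7 of 20 genes called higher, 0 lower and a median of 0.72. Against sham its median was 0.43 at day 2 and 1.09 at day 14, and 17 of its 20 genes had an unadjusted p under 0.05 at day 14, beside 3.10% of all genes with such a p and a higher value at day 14, although 0 passed adjustment. The summed level of the list did not separate the stroke times: it was 4807 to 6198 CPM at day 2, 4595 to 6242 CPM at day 14 and 2468 to 3480 CPM in sham. Ifitm3 held more than any other gene of this sum, at 3121 to 3399 CPM at day 2 and 1459 to 2159 CPM at day 14.

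Gbp3, a guanylate-binding protein of interferon responses, was at 154, 139, 206 and 214 CPM at day 2 and at 473, 391, 407 and 414 CPM at day 14. Sham was at 150 to 247 CPM, so each day 14 library lay above all 8 others. Its log2 difference was 1.24 ± 0.20 from day 2 (adjusted p 0.00219 by edgeR) and 1.21 ± 0.21 from sham (unadjusted p 3.65e-05, adjusted p 0.114). Rsad2, the antiviral enzyme viperin, was at 20.9, 55.7, 74.9 and 75.5 CPM at day 2 and 247, 276, 136 and 113 CPM at day 14 (1.81 ± 0.38, adjusted p 0.00804), and sham replicate 3, at 165 CPM, overlapped the range of day 14. The difference of Rsad2 was 2.87 (adjusted p 0.0518) within the set of low mitochondrial share and 0.71 (adjusted p 0.309) within the set of high share. Isg15, a ubiquitin-like protein, Irf9, a transcription factor of interferon signalling, and Oasl2 and Xaf1, both induced by interferon, were also called higher (0.70, 0.87, 0.94 and 0.94). The calls of Isg15, Irf9 and Oasl2 were each dependent on each of 10 libraries (adjusted p 0.0504 to 0.159), and that of Xaf1 without day 2 replicate 1 or day 14 replicate 1 (adjusted p 0.0536 to 0.057). Ifitm3, a membrane protein that blocks viral entry, went the other way without a call (-0.77 ± 0.24, adjusted p 0.0506), after a rise at day 2 of 1.53 ± 0.25 over sham (adjusted p 0.00187). Bst2, which tethers virus particles, was also higher than sham at day 2 (1.10, adjusted p 0.00576) and was at 0.91 ± 0.23 over sham at day 14 (unadjusted p 0.00101). Both Ifitm3 and Bst2 were in the possibly kept class. Without 1 library 3 to 6 genes of the list were called higher, and within the sets of low and high mitochondrial share the median was 1.15 and 0.35.

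MHC class I genes, which present peptides to CD8 T cells, had 5 of 13 called higher, 0 lower and a median of 0.71, and 2 to 5 were called without 1 library. H2-K1, a class I heavy chain, was at 685, 456, 736 and 528 CPM at day 2 and at 1379, 1488, 1104 and 1026 CPM at day 14, while sham was at 649 to 954 CPM (1.06 ± 0.23 from day 2, adjusted p 0.00862 by edgeR). H2-T23, a non-classical class I chain, went from 122 to 173 CPM to 235 to 436 CPM (1.31 ± 0.22, adjusted p 0.00258), and was called lower at day 2 than in sham (-0.90 ± 0.23, adjusted p 0.0191). Psmb9, a subunit of the immunoproteasome, went from 48.8 to 77.6 CPM to 94.2 to 149 CPM (1.15 ± 0.27, adjusted p 0.0146), and H2-Q4 from 32.3 to 53 CPM to 65.9 to 169 CPM (1.38 ± 0.31, adjusted p 0.0107). Without day 14 replicate 1 the adjusted p of these 2 was 0.0531 and 0.0622, and H2-Q4 differed by 2.02 and 0.50 within the sets of low and high mitochondrial share. The class I heavy chains are similar in sequence, so the assignment of reads among H2-K1, H2-Q4, H2-Q7 and H2-T23 is uncertain. H2-Q7 was the remaining called gene (1.71 ± 0.50), and its call was dependent on each of 11 libraries (adjusted p 0.0512 to 0.126). Against sham the list median was 0.02 at day 2 and 0.78 at day 14. At day 14, 9 of 13 genes had an unadjusted p under 0.05 by edgeR, although 0 passed adjustment. Of all genes, 3.10% had such a p and a higher value than sham at day 14. The list median was 1.27 and 0.39 within the sets of low and high mitochondrial share, and 0 class II genes were high enough to be tested.

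The promoters of these genes were read from RefSeq (build GRCm38.p6), as the 250 bases before the gene start. A promoter was found for 4581 of the 5833 tested genes (78.5%), by symbol or a unique synonym. Promoters of 1 chromosome were left out before this count, so genes with starts only there count as having none. Some genes have several starts, which gave 5886 promoters, and a gene counted when any of its promoters held the letters. A form of the interferon-stimulated response element, read as GAAA, any 2 bases and GAAA on either strand, occurred in 161 of the 4581 (3.51%), in 9 of the 16 interferon list genes that had a promoter (56.2%), and in 3 of the 6 called ones. The element occurred in 12 of 237 genes that were higher at day 14 (5.06%) and 10 of 294 that were lower (3.4%). In the MHC class I list it occurred in 2 of 12 genes and in 1 of the 5 called ones, H2-T23. The CTTTGA letters bound by TCF and LEF factors occurred in 12.6% of all genes with a promoter and in 2 of 10 in the Wnt list. TGANTCA, bound by AP-1, occurred in 5.09% of all and in 0 of 11 in the early response list. The NF-kB letters, read as GGGA, any 4 bases and CC, occurred in 25.4% of all genes with a promoter and in 5 of 12 MHC class I genes. A match is a description and not a bound site. The promoters of 4 called genes with the response element are shown, in lower case with the element in capitals, read 5′ to 3′ on the gene's strand and ending 1 base before the start.
Rsad2, chr12:26456453-26456702, minus strand: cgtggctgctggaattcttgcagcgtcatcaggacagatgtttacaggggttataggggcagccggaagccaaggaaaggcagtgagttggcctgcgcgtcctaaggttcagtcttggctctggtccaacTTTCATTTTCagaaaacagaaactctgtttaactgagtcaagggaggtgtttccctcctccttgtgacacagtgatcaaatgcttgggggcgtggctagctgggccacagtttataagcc
Gbp3, chr3:142559794-142560043, plus strand: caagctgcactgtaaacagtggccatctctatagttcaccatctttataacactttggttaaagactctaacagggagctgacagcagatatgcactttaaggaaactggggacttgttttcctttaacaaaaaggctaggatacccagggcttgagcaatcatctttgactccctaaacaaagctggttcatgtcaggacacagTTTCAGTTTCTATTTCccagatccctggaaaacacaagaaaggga
Isg15, chr4:156200819-156201068, minus strand: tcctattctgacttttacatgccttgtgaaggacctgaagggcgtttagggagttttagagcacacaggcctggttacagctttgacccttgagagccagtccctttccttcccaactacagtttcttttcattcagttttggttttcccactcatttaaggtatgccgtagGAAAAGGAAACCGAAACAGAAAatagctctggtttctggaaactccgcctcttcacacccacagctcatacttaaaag
H2-T23, chr17:36032702-36032951, minus strand: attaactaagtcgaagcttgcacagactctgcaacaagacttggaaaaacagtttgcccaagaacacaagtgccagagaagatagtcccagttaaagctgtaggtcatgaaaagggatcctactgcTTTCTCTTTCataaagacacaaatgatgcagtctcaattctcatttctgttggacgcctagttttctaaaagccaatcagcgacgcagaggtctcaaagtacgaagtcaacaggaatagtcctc
The element began 120 bases before the start in Rsad2 and 124 in H2-T23, while Gbp3 had 2 matches and Isg15 had 3. Another start of Gbp3 had no match. These are the genes of the group whose values are given above, with Gbp3, Rsad2 and H2-T23 called in every fit that left out 1 library.

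**Figure D3:**
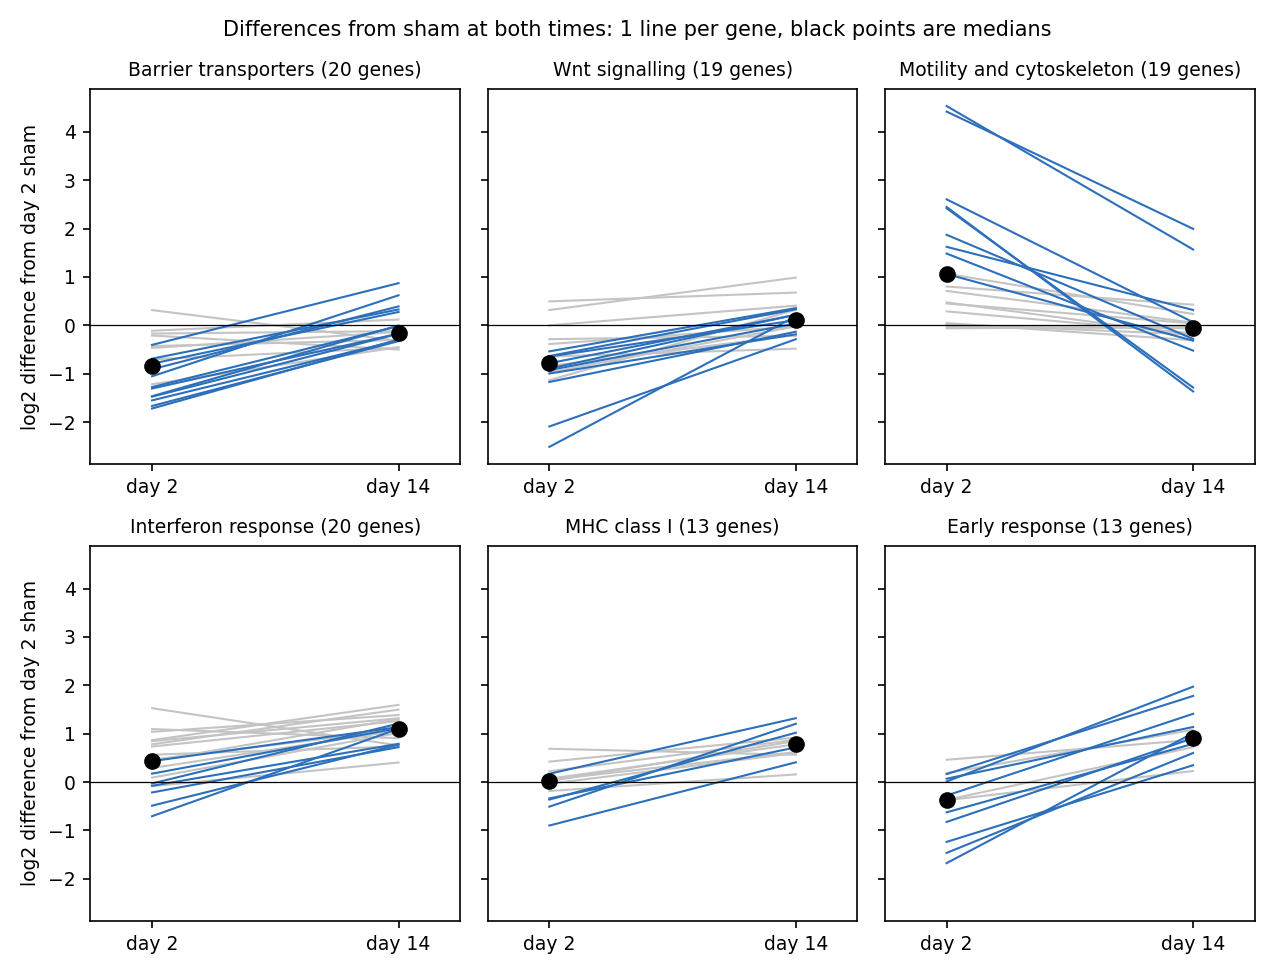
Log2 difference from day 2 sham at stroke day 2 and stroke day 14, with 1 line per gene of 6 lists; blue lines are genes called between both stroke times by edgeR, grey lines the others, and black points the list medians. Both times share the same sham libraries. Medians of transporters, Wnt and motility genes lie between -0.15 and 0.11 at day 14, while those of interferon response (1.09), MHC class I (0.78) and early response genes (0.91) lie above sham.

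Early response genes, transcription factors and regulators that cells switch on within minutes of a stimulus, had a list median of 1.58 between the times, with 9 of 13 called higher and 0 lower. Jun was at 460, 540, 573 and 972 CPM at day 2 and at 1546, 3362, 3395 and 2373 CPM at day 14, with sham at 871 to 3052 CPM (2.07 ± 0.37, adjusted p 0.00303 by edgeR). Fosb was at 10.7 to 81.8 CPM at day 2 and at 228, 496, 299 and 217 CPM at day 14, with sham at 75.1 to 283 CPM (2.69 ± 0.44, adjusted p 0.00219). Sham and day 14 libraries overlapped for both genes, which were also called lower at day 2 than in sham, calls dependent on each of 4 libraries (adjusted p 0.0527 to 0.0937 for Jun and 0.0555 to 0.116 for Fosb). Fos went from 308 to 679 CPM to 819 to 2087 CPM (1.73 ± 0.42, adjusted p 0.0163), a call that failed after removal of replicate 3 of either time (adjusted p 0.0506 and 0.051). Jund, another AP-1 subunit, went from 150 to 328 CPM to 441 to 927 CPM (1.58 ± 0.30, adjusted p 0.00401). Klf4 and Klf9, factors that respond to blood flow and to glucocorticoids, were called higher as well (1.29 ± 0.35 and 1.23 ± 0.26). They were the 2 called of 13 tested genes in the flow and glucocorticoid list, whose median was -0.26. Of all genes, 11.2% were called. The call of Klf4 was dependent on each of 5 libraries (adjusted p 0.0562 to 0.118), that of Klf9 on none. The number of early response genes called ranged from 3 to 10 when 1 library was left out.

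The possibly kept genes were led, by the size of their day 14 difference from sham, by Sult1a1, Trp53inp1, Ctgf and Tmtc1 on the lower side and by Ubtd1, Tfpi and Slc29a1 on the higher. Aff1, of the transcription elongation machinery, was also in this group (-1.41 ± 0.37 from sham at day 14, adjusted p 0.346), and its day 2 call was dependent on each of 6 libraries (adjusted p 0.0602 to 0.0816). Tfpi, an inhibitor of coagulation, was at 31.1, 25.3, 9.14 and 10.7 CPM in sham, at 70.4, 76.6, 104 and 64.2 CPM at day 2 and at 62.8, 60.1, 63.4 and 65.9 CPM at day 14. Both stroke times lay above all sham libraries and overlapped each other. Its difference from sham was 1.76 ± 0.33 at day 2 (adjusted p 0.00409 by edgeR) and 1.44 ± 0.35 at day 14 (unadjusted p 0.000781, adjusted p 0.325). Slc29a1, a nucleoside transporter, had differences of 1.83 ± 0.34 and 1.38 ± 0.37 from sham, where it was at 9.14 to 21.4 CPM. It was at 47.5 to 56.2 CPM at day 2 and 28.2 to 49.8 CPM at day 14. Trp53inp1, a target of p53, was at 36.3, 186, 101 and 96.5 CPM in sham, at 13.4 to 25.7 CPM at day 2 and at 18.8 to 45.3 CPM at day 14 (-1.67 ± 0.46 from sham, unadjusted p 0.00214). Sult1a1, a sulphotransferase, was at 101 to 426 CPM in sham, 30.4 to 149 CPM at day 2 and 45.3 to 75.3 CPM at day 14, apart from sham (-1.95 ± 0.47, unadjusted p 0.000764, adjusted p 0.325), and DESeq2 called it. Its day 2 call was dependent on each of 10 libraries (adjusted p 0.0502 to 0.272), and that of Ctgf, a matricellular growth factor, on each of 6 and that of Tmtc1 on each of 8 (adjusted p 0.0579 to 0.129 and 0.0527 to 0.144).

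The summed cells differed in makeup between the times. The authors' annotation divides endothelial cells into 9 codes, EC1 to EC9, which were made from the same counts, so their shares and the gene values above are 2 views of one measurement. EC2, led by S100a6, Timp1 and Tubb6, held 47.2%, 59.2%, 38.4% and 32.7% of endothelial cells in the day 2 libraries and 4.75%, 1.57%, 3% and 0.315% in those of day 14. In sham it held 0.339% to 5.49%, a range that overlaps that of day 14. EC1, led by Ttr and Prl, secreted proteins made mainly by other cells, with Car4 and Tfrc also among its leading genes, held 41.4% ± 12.8 at day 14, 23.2% ± 4.42 at day 2 and 60.1% ± 9.59 in sham (SD, n = 4 each). EC3, led by Fosb, Fos and Dusp1, held 25.2%, 30.7%, 36.3% and 22.1% at day 14, 3.49% to 14.8% at day 2 and 3.73% to 13.7% in sham. EC5, led by Ifit3, Ifit3b and Ifit2, held 13.6% ± 3.94 at day 14, 7.44% ± 3.61 at day 2 and 4.50% ± 1.37 in sham, with overlap between the stroke times. For EC1, EC2 and EC3 the exact two-sided permutation test gave p 0.0286, the smallest that 4 against 4 libraries allow, and an adjusted p over the 9 codes of 0.0857, so no share passed the test. When only EC1 cells were summed, 21 of 2174 genes were called between day 14 and day 2. In EC1 cells alone, Abcb1a differed by 0.76, Flt1 by 0.62, Anxa2 by -1.87 and Gbp3 by 1.07, of which Anxa2 was called. A change in the cells' makeup and a change within cells cannot be told apart in the sums.

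**Figure D4:**
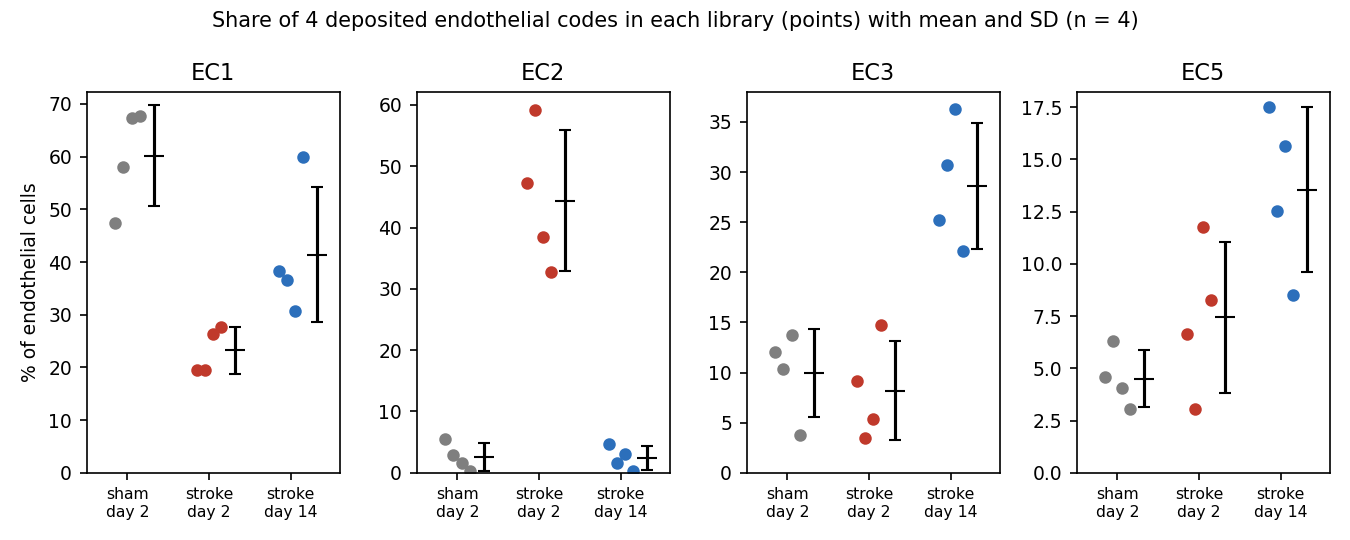
Share of endothelial cells with the deposited codes EC1, EC2, EC3 and EC5 in each library (points, in percent), with mean and SD of 4 libraries in black. EC2 is at 32.7% or more in every stroke day 2 library and at 5.49% or less in every other, and EC3 is highest in the 4 libraries of day 14.

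Aged mice gave values at both times for the same genes. They comprised 2 sham libraries and 3 stroke libraries of day 2, from males and females, and 1 stroke library of day 14, from females, with 176 endothelial cells and 58613 counts, so no test was made, and CPM here use plain library sizes, without TMM. Of the 296 genes higher at day 14 in young mice, 218 (73.6%) were higher in the aged day 14 library than in all 3 aged day 2 libraries, beside 33.6% of all 5833 genes. Of the 358 lower genes, 254 (70.9%) were lower than in all 3, beside 31.9% of all genes. Abcb1a was at 811, 975 and 1119 CPM in the aged day 2 libraries and at 2248 CPM at day 14, Axin2 at 20.1, 16.2 and 34 and at 102 CPM, and Gbp3 at 76, 134 and 155 and at 458 CPM. Lrg1 was at 819, 747 and 1385 CPM and at 153 CPM, and Sparc at 3851, 4036 and 3364 and at 948 CPM. An exception was Fosb, whose 199 CPM at day 14 lay within the 86.7 to 342 CPM of day 2. S100a6 was at 435, 348 and 425 CPM at day 2 and was at 346 CPM at day 14.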

How the data were processed

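Drop-seq libraries of sorted brain cells were used. The authors deposited expected counts per gene and cell with a table of cell type codes (per the file headers). The percent of mitochondrial counts per cell was also deposited by the authors. Most values above 0 lie just under a whole number, and what made them so is not given in the sources used here. The submitters' processing notes name mm10 and Seurat without a role.

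Counts were summed per library over cells coded EC and rounded. The 12 libraries of 3 groups entered one edgeR 4.0.16 quasi-likelihood fit with TMM scaling and filterByExpr, which kept 5833 of 19704 genes. P-values were Benjamini-Hochberg adjusted over these genes, and calls are at an adjusted p under 0.05. Standard errors are the log2 difference divided by the square root of the test's F. CPM use TMM effective library sizes, except for marker sums of other cell types and the aged libraries, which use plain library sizes. The endothelial sums hold 100317 to 730352 counts per library, over 295 to 1171 cells, with medians of 286 to 1008 counts per cell. Zero-count limits cover counting error only.

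Named genes were the 12 with the largest called change in each direction with at least 20 CPM and no overlap of libraries, the same with 6 for day 2 against sham, up to 8 possibly kept genes, and up to 4 called members of each list. Genes that another cell type held at over 10 times the endothelial level were excluded, except S100a6. Other list members were named after their values were seen, and 1 called list member is not reported here. The members and lists were chosen with earlier results of these data known.

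Same-numbered libraries of day 14 and day 2 deviated together from their group means in all 4 pairs (correlations 0.2611, 0.4751, 0.4779 and 0.1391), although day 2 replicate 4 correlated best with day 14 replicate 3 (0.2863). Pairs with other numbers but the same set of mitochondrial share had correlations of 0.08597, 0.2151, 0.06064 and 0.2863. Same-numbered pairs with sham did not do so throughout (correlations -0.1188 to 0.1513). In the stroke libraries the numbers also follow the sets of mitochondrial share, so a pairing by number cannot be told apart from the sets. Sham replicate 2 is in the set of high share, unlike replicate 2 of both stroke times.

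Simulated data with known changes, for day 14 against day 2, gave calls for 32.2% of genes changed 2-fold, 90.2% changed 4-fold and 0.132% unchanged, over 5468 genes. The first 2 shares are over the 90 and 92 changed genes that passed the filter. Counts were drawn independently, without the 2 sets of mitochondrial share, so the shares can differ in the real libraries. Scrublet marked 15 of 43269 cells (0.0347%) as doublets, too few to be used, so the 5% of cells with the highest scores were left out as an alternative. Libraries shared at most 3 cell barcodes in a pair. Alternatives included DESeq2 1.42.0, other scaling and filters, each library left out, the replicate block and subsets of cells.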

Additional observations from a re-analysis of the deposited data

Results flagged for a closer look

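In 24 of 270 groups of 4 libraries, 1 library stood far from the other 3 by Dixon's criterion, which chance meets in about 1 in 20 groups. In the day 14 group, Abcb1a was low in replicate 3 at 1648 CPM, below the 2420 to 2542 CPM of the others, and Slco1c1 was high in replicate 1 at 2085 CPM. Day 14 replicate 4 was high for Esyt2 (1130 CPM), Plekhh2 (122.4 CPM) and the cell cycle gene Ccnd1 (188.3 CPM) and low for Tnfrsf1a (37.66 CPM). Day 14 replicate 1 was high for Nr1d1 (123.7 CPM) and low for Efnb2 (43.04 CPM), and it was the library with Timp1 at 5.38 CPM and Adamts9 at 16.14 CPM, where the others were at 0. It also held the most endothelial cells of its group, 674 against 300 to 319. Selp was at 40.74 CPM in day 14 replicate 3 and at 0 in the others.

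In the day 2 group, Esyt2 was high in replicate 3 at 224.8 CPM, Tmtc1 was high in replicate 1 at 57.05 CPM, and Tfrc was low in replicate 1 at 175 CPM. In sham, replicate 1 was low for Esyt2 (272.1 CPM) and Ctgf (28.51 CPM) and high for Igfbp4 (31.1 CPM) and Adamts9 (12.96 CPM). Sham replicate 3 was high for Rsad2 (164.5 CPM) and Fos (1563 CPM) and low for Xaf1 (127.9 CPM). Cebpd was high in sham replicate 2 at 616.4 CPM, and Ocln was low in sham replicate 4 at 117.9 CPM.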

How the results depend on the processing

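Between day 14 and day 2, all 654 called genes that could be tested kept their direction under every alternative, except 1 of 441 when only EC1 cells were summed. The count of 654 became 404 with no filter on low counts, 21 with only EC1 cells, 13 within the libraries of low and 133 within those of high mitochondrial share. With mitochondrial share as a term it was 823, and 653 of the 654 were still called. It was 324 to 717 with 1 library left out, of which 306 to 626 were among the 654. The replicate block gave 653, with 581 shared, and among the named genes it changed only the call of Ackr1. For day 2 against sham, the count of 778 became 415 with cells of at least 500 counts, 13 with only EC1 cells, 766 with the replicate block and 320 to 991 with 1 library left out. For day 14 against sham, the count of 0 became 10 with DESeq2, 6 with no filter, 11 with counts rounded up, 1 with the replicate block, 2 with mitochondrial share as a term and 0 to 1 with 1 library left out. Returned genes numbered 432, and 261 with no filter, 281 with cells of at least 500 counts, 4 with only EC1 cells, 426 with the replicate block and 230 to 481 with 1 library left out. With mitochondrial share as a term they numbered 523. The cause was not tested, other than that sums of EC1 cells and pairs of libraries hold fewer counts or samples. The sets of mitochondrial share, the mitochondrial term and the score limit were chosen after seeing the data. The planned removal of Scrublet doublets was not run, and minimums of 1 and 50 cells change nothing, since every library held at least 295 endothelial cells. Depth limits low genes: 3 counts are 5.38 to 28.2 CPM in the day 14 libraries.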
